A study of Mus musculus with 33 samples.

Results

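The 7 genes described here make, package, retrieve and sense dopamine, or bind prolactin. They are *Th*, *Ddc*, *Slc6a3*, *Slc18a2*, *Drd1*, *Drd2* and *Prlr*, chosen by name from the 41565 named entries of the deposited table, and all 7 were found. Bulk RNA-seq had been run on 33 libraries from WT female C57BL/6 mice, 16 from the posterior hypothalamus (PH) and 17 from the preoptic area (POA), to follow the hypothalamus after ovarian estrogen is lost by ovariectomy (OVX). The intact group (4 PH and 5 POA libraries) came from mice killed in diestrus before any surgery. The titles call this group sham, whereas another label and the methods call it intact. The 14dOVX group (6 libraries per region) was collected 14 days after both ovaries were removed at 3 to 4 months of age, and the 4mOVX group (6 per region) 4 months after it. The 4mOVX mice were therefore older than the intact mice, so that time since OVX and age cannot be told apart. One POA library, 14dOVX replicate 3, carries an incomplete genotype label and was grouped by its title. Every group was spread over 2 batches, which here are the 2 prefixes of the library names. The paper does not name them as batches. Nothing in the labels states that each library is a separate mouse, so *P* values measure the spread between libraries.

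Tyrosine hydroxylase (*Th*) makes L-DOPA from tyrosine, aromatic L-amino acid decarboxylase (*Ddc*) turns it into dopamine, the vesicular monoamine transporter (*Slc18a2*) loads it into vesicles, and the dopamine transporter (*Slc6a3*) takes it back up. Dopamine neurons of the arcuate nucleus release dopamine toward the pituitary, where it restrains prolactin secretion through the D2 receptor (*Drd2*), and prolactin feeds back on these neurons through its receptor (*Prlr*). The D1 receptor (*Drd1*) stimulates adenylyl cyclase and the D2 receptor inhibits it, and both are most abundant in the striatum.

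The 250 bases before the start sites were searched for 3 motifs, bound by estrogen receptors, NR4A receptors and CREB. Start sites were taken from RefSeq (GRCm38.p6), in which all 7 genes matched with 11 starts. The estrogen response element GGTCANNNTGACC was found in none of the 11 windows and in 0.0639% of all 32851 promoters of this length. The cAMP response element TGACGTCA was found before *Th*, 45 bases from the start, and in 1.55% of all promoters. The NBRE motif AAAGGTCA, named for the NR4A receptors, was found once, on the opposite strand, 73 bases before 1 of the 2 starts of *Ddc*, and in 1.34% of all promoters. Both strands were searched, and the NBRE shares the letters GGTCA with the estrogen response element. The 4 windows given here belong to the 2 enzymes with a match and to the 2 transporters whose signals moved together across libraries, which hold none of these motifs. Capitals mark the matches, each sequence is given from 5′ to 3′ of its gene's strand, and a match is only a description of these letters. The windows are chr7:142899996-142900245 (minus strand), chr11:11898145-11898394 (minus strand), chr13:73536497-73536746 (plus strand) and chr19:59260628-59260877 (plus strand), in this order.
Th: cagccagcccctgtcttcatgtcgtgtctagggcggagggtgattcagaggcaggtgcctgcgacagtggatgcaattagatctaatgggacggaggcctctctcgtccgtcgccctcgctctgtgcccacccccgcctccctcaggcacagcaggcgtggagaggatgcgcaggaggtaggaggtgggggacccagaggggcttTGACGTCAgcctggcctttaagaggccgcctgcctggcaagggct
Ddc: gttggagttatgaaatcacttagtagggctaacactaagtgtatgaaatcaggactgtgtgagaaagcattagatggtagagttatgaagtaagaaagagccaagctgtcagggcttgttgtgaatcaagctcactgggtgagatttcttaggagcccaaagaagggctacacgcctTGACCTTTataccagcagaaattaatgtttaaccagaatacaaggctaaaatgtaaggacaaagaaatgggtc
Slc6a3: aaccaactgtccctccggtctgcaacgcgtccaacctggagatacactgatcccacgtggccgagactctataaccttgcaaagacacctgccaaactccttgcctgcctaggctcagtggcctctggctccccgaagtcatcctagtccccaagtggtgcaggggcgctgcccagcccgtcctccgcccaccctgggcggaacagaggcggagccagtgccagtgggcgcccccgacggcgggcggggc
Slc18a2: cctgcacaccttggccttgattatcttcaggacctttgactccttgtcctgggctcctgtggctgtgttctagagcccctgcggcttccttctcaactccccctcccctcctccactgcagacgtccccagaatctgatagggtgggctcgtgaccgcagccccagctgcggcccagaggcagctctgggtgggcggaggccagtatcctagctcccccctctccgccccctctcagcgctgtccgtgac

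In the GRCm39 assembly (GENCODE M39 annotation) *Th* lies at chr7:142443466-142484865 and *Ddc* at chr11:11762602-11848150, both on the minus strand. *Slc6a3* lies at chr13:73684866-73726801, *Slc18a2* at chr19:59249238-59284695 and *Drd2* at chr9:49251654-49319477, all on the plus strand, with *Drd1* at chr13:54204872-54209760 on the minus strand and *Prlr* at chr15:10177258-10349959 on the plus strand. These whole-gene positions and the start windows come from different builds and were not converted.

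The values are a normalized signal on a linear scale in which a gene without expression lies at a floor of 22.2. All 7 genes passed the filter on low values in both regions, and the lowest value of any of them was 3.39 times the floor (*Slc6a3*, POA). Per kilobase of transcript and with the floor subtracted, the median level over the PH libraries was 417 for *Ddc*, 409 for *Slc18a2*, 307 for *Drd2*, 249 for *Prlr*, 172 for *Th*, 122 for *Drd1* and 122 for *Slc6a3*. The order was the same in the POA, with 418 for *Ddc* and 78.1 for *Slc6a3* at the ends. Neighbors in this order overlapped in their library ranges, whereas *Ddc* (335 to 609.9 in the PH) lay above *Th* (103 to 273) in every PH library, and the same held in the POA. This order depends on the length of the 1 canonical transcript used per gene (3523 bases for *Ddc*, 4842 for *Th*, 10383 for *Prlr*). *Th* has 37 annotated transcripts and *Prlr* 30, and which of them were expressed is not known. Before scaling, the PH ranges of *Ddc* (1202 to 2171) and *Th* (523 to 1342) overlapped. Levels were not compared between regions, because 83.55% of the variation of 1 component carried by the genes at the floor lay between them. Over all named entries, those at the floor included, the median absolute difference between region means was 0.032 on the log2 scale. In intact mice the median of the arcuate marker list was 8.06 (PH) and 8.04 (POA), and that of the preoptic list 6.49 and 6.63. The lateral and posterior hypothalamic list differed more (9.59 and 8.90). The shared order of the 7 genes therefore does not show that the 2 tissues are alike. In bulk tissue, fewer cells of a type and less RNA per cell cannot be told apart.

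**Figure D1:**
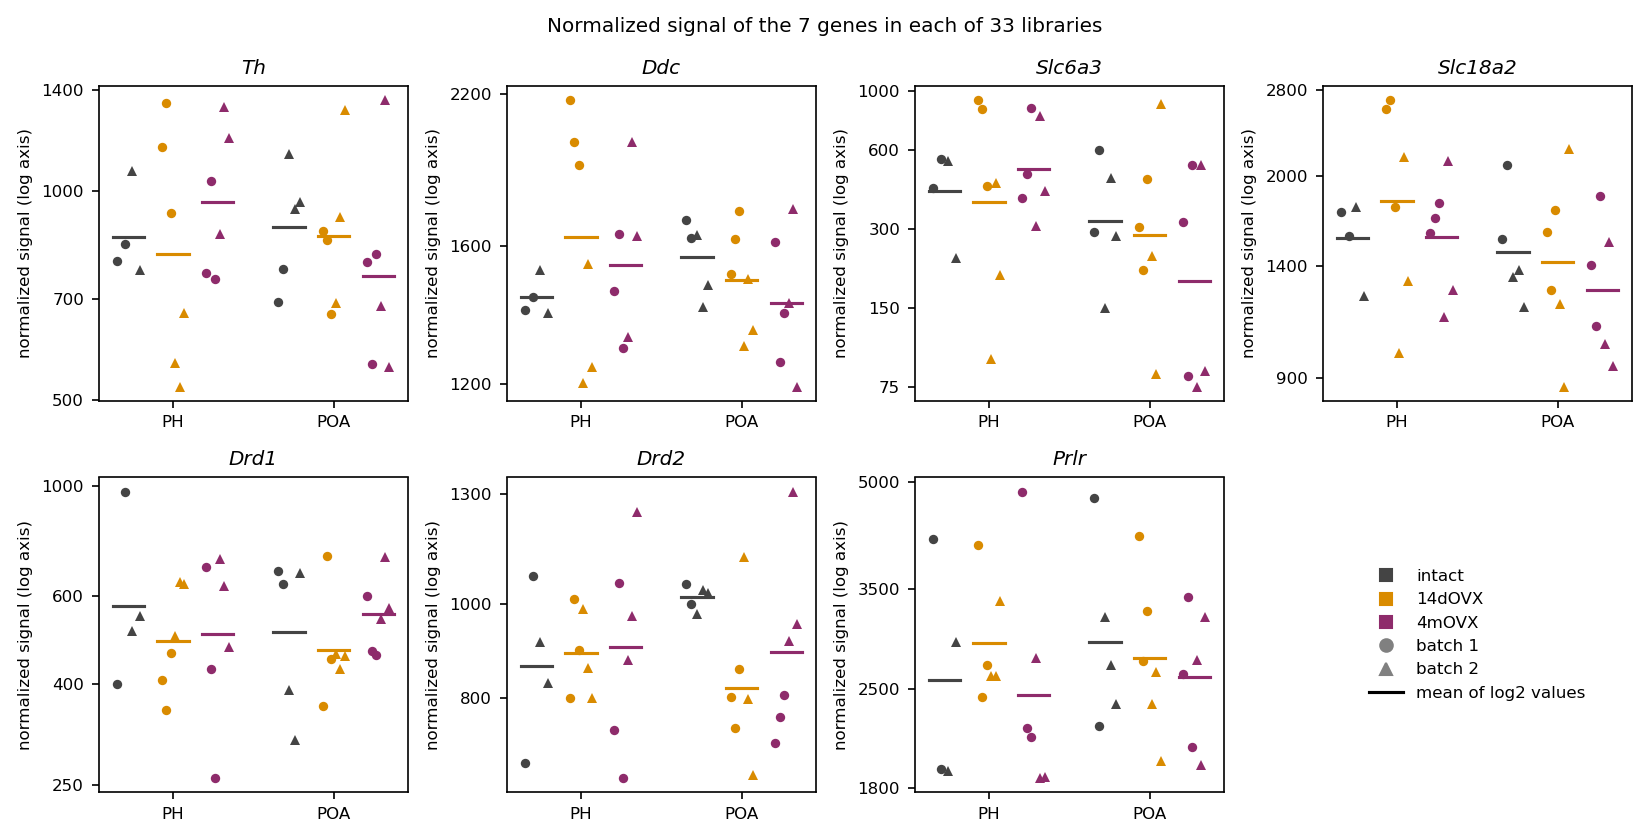
Normalized signal (log axis) of the 7 genes in each library, by region and group, with batch shown by symbol and the mean of the log2 values by a bar. The 3 groups overlapped for every gene in both regions, and *Slc6a3* in the POA ran from 75.2 to 898.

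None of the 7 genes changed after OVX in either region by limma at an adjusted *P* under 0.05 over all tested genes. The count was 0 of 7 in the PH at 14 days (0.00% of 21949 tested genes were called), at 4 months (0.0319%) and between the 2 times (0.00911%). It was also 0 of 7 in the POA at 14 days (0.00469% of 21317), at 4 months (0.0938%) and between the 2 times (0.0281%). At an unadjusted *P* under 0.05, 1 of the 7 genes passed in 1 of the 6 comparisons, *Drd2* in the POA at 14 days, where 6.14% of all genes passed. The shares of all genes in the other comparisons, in which no member passed, were 3.04%, 6.06% and 4.09% (PH) or 8.50% and 5.11% (POA). The comparisons within a region share groups, so their values stand side by side and are not independent. In no comparison were the 2 groups free of overlap for any of the 7 genes. The share of all tested genes without overlap was not computed, so this count does not set the 7 genes apart.

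**Figure D2:**
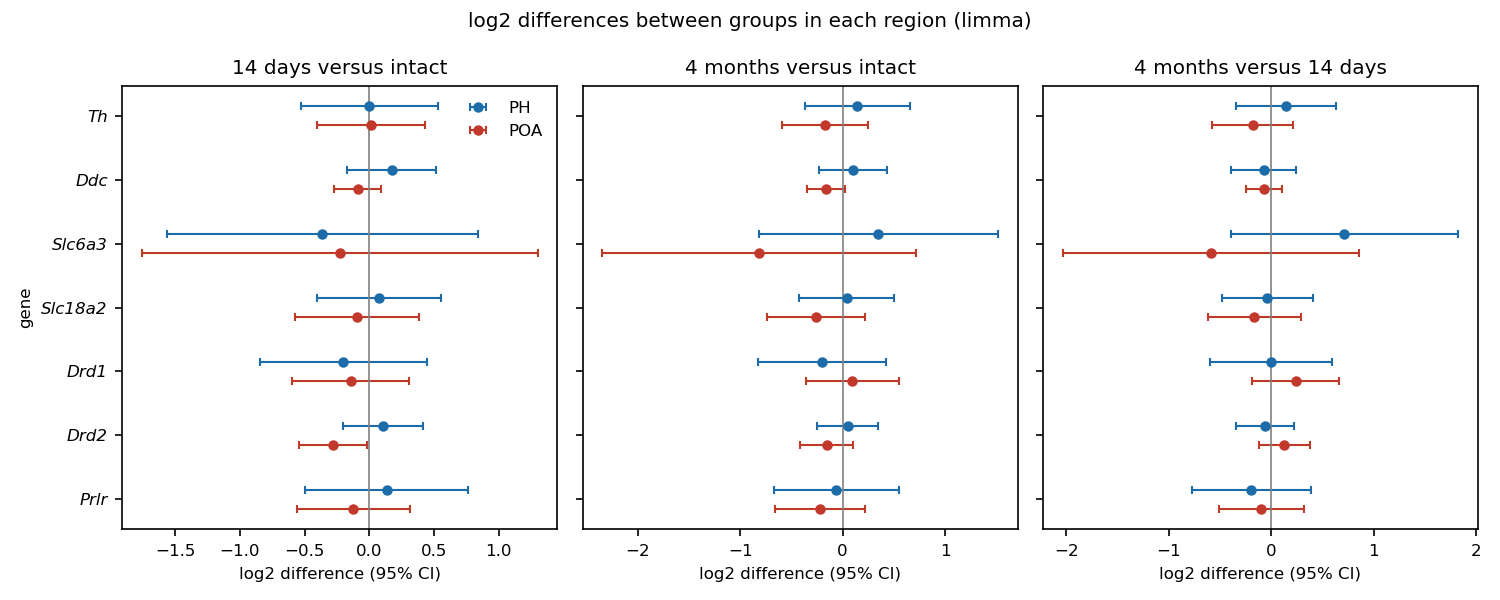
The log2 differences between groups with 95% CIs, from limma with SV1, in the PH (blue) and POA (red). Of the 42 intervals, only that of *Drd2* in the POA at 14 days, from -0.55 to -0.02, leaves out 0, and those of *Slc6a3* are the widest.

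Among the synthesis genes, *Th*, the rate-limiting enzyme, did not pass in any comparison. In the PH its signal was 868 ± 137 in intact mice (SD, n = 4), 865 ± 336 at 14 days (n = 6) and 989 ± 238 at 4 months (n = 6). The POA means were 902 ± 172 (n = 5), 885 ± 233 (n = 6) and 794 ± 295 (n = 6). The spread within the OVX groups was wide: the 14dOVX PH libraries ran from 523 to 1342, and 3 of these 6 lay below and 2 above all 4 intact libraries. At 14 days the PH libraries of batch 1 were at 1159, 1342 and 930, and those of batch 2 at 566, 523 and 668. In the PH the log2 differences of *Th* from intact were 0.00 at 14 days (95% CI -0.53 to 0.53) and 0.14 at 4 months (-0.37 to 0.66). In the POA they were 0.01 (-0.41 to 0.43) and -0.17 (-0.59 to 0.25). The PH difference at 14 days was 0.47 in batch 1 alone and -0.64 in batch 2 alone. From 14 days to 4 months the PH difference was -0.43 in batch 1 alone and 0.93 in batch 2 alone. Each of these 2 comparisons had 2 of 29 alternative fits at an unadjusted limma *P* under 0.05 and 0 called.

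*Ddc* had the smallest SD within group and batch of the 7 genes (0.18 in the PH, 0.16 in the POA, on the log2 scale) and had the smallest *P* of them in 2 comparisons within a region. In the PH the 4 intact libraries had signals of 1401, 1441, 1522 and 1393, whereas the 14dOVX libraries had a lowest value of 1202, a median of 1719 and a highest of 2171. The 4mOVX libraries ran from 1293 through a median of 1547 to 1989. Thus 4 of the 6 libraries at 14 days lay above, and 2 below, every intact library. The means were 1439 ± 59.0 (n = 4), 1674 ± 405 (n = 6) and 1557 ± 258 (n = 6). The log2 difference at 14 days was 0.17 (SE 0.16, limma adjusted *P* = 1.00). An exact 2-sided permutation test over its 210 splits gave *P* = 0.357. The 14dOVX values were 2171, 1991 and 1895 in batch 1, and 1202, 1543 and 1245 in batch 2. The direction turned in batch 2 alone, with a log2 difference of -0.14, against 0.50 in batch 1 alone. Of the 29 alternative fits, 1 had an unadjusted limma *P* under 0.05 and 0 were called.

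In the POA, *Ddc* had intact values of 1689, 1628, 1640, 1411 and 1476, and 4mOVX values with a lowest of 1194, a median of 1407 and a highest of 1730. Of the 6 libraries at 4 months, 3 lay below all intact libraries and 1 lay above them. The means were 1569 ± 119 in intact mice (n = 5), 1499 ± 161 at 14 days (n = 6) and 1435 ± 206 at 4 months (n = 6). The log2 difference at 4 months was -0.16 (SE 0.09, limma adjusted *P* = 0.65), and the exact 2-sided permutation test over 462 splits gave *P* = 0.199. The 95% CI, from -0.34 to 0.02, was among the narrowest of the 7 genes.

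The dopamine transporter *Slc6a3* had the widest spread of the 7 genes. Its highest value was 9.65 times its lowest among PH libraries and 11.9 times among POA libraries, and its SD within group and batch (0.76 and 1.25 on the log2 scale) was larger than that of 98.5% and 99.8% of the tested genes. The PH intact libraries had signals of 429, 553, 544 and 232. At 14 days the PH values had a lowest of 95.8, a median of 444 and a highest of 925, and at 4 months they ran from 306 through 452 to 867. Both OVX groups thus reached above the intact group, and the 14dOVX group also reached below it. The log2 difference between 4 months and 14 days, the smallest *P* of the 7 genes in that comparison, was 0.71 (SE 0.51, limma adjusted *P* = 1.00; exact 2-sided permutation *P* = 0.511 over 924 splits). It was 0.42 from the plain group means and -0.36 in batch 1 alone.

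In the POA, *Slc6a3* was at 293, 598, 150, 467 and 281 in the intact libraries. The 14dOVX libraries had a lowest value of 84.04, a median of 270.003 and a highest of 898. At 4 months the 6 values were 319, 82.6, 523, 75.2, 525 and 86.3, so that 3 libraries lay below the whole intact group and the other 3 lay inside its range. The list of 3 lateral and posterior hypothalamic genes, *Hcrt* among them, was chosen for mention after its values were seen. It moved with this split, with a mean log2 signal of 7.95, 7.41 and 8.04 in the 3 low libraries against 9.17, 9.79 and 9.78 in the others. It was also 7.11 in the 14dOVX library lowest in *Slc6a3* and 10.44 in the highest, and its part in these values was not tested. The component carried by the genes at the floor split the 4mOVX libraries in the same way. In SD units it was -0.30, -0.21 and -0.19 in the 3 low libraries against -1.01, -1.52 and -1.41 in the others. The group means were 439.7 ± 149 (n = 4), 495 ± 338 (n = 6) and 546 ± 233 (n = 6) for the PH, against 358 ± 176 (n = 5), 366 ± 289 (n = 6) and 268 ± 218 (n = 6) for the POA. Its log2 difference from intact at 4 months, chosen for mention after its value was seen, was 0.35 in the PH (95% CI -0.82 to 1.52) and -0.82 in the POA (-2.35 to 0.71), the largest of any of the 7 genes. No other member had intervals as wide.

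*Slc18a2*, the vesicle transporter that dopamine neurons share with histamine and serotonin neurons, followed *Slc6a3* with a smaller spread. Its PH means were 1581 ± 239 (n = 4), 1919.8 ± 684 (n = 6) and 1602 ± 353 (n = 6) in intact, 14dOVX and 4mOVX mice, and its POA means were 1511 ± 347 (n = 5), 1487 ± 473 (n = 6) and 1312.5 ± 346 (n = 6). The same library, 14dOVX replicate 4 in the PH, held the lowest values of both transporters there (995 for *Slc18a2*). In the POA the lowest *Slc18a2* value, 872, was in 14dOVX replicate 5. The log2 differences of *Slc18a2* from intact were 0.08 and 0.04 for the PH, -0.10 and -0.26 for the POA, with limma adjusted *P* of 0.79 or more in each.

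Of the 2 receptors, *Drd1* gave the smallest *P* of the 7 genes in 2 comparisons without passing in either. In the PH its intact values were 398, 973, 511 and 547, and its 4mOVX values had a lowest of 258, a median of 552 and a highest of 713. A single intact library, replicate 2, stood above all 6 libraries at 4 months. The log2 difference at 4 months was -0.20 (SE 0.29, limma adjusted *P* = 0.95), and it became 0.054 without that library and 0.013 without 4mOVX replicate 3. In the POA the difference between 4 months and 14 days was 0.24 (SE 0.20, limma adjusted *P* = 1.00), with a 14dOVX median of 452 against a 4mOVX median of 555. Group means were 608 ± 252 (n = 4), 499 ± 118 (n = 6) and 531 ± 176 (n = 6) for the PH, against 534.3 ± 173 (n = 5), 479 ± 125 (n = 6) and 559 ± 97.0 (n = 6) for the POA.

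*Drd2* was lower in the POA at 14 days at an unadjusted *P* only. The 5 intact libraries lay close together at 1050, 1001, 976, 1034 and 1028. The 14dOVX libraries were at 802, 746, 858, 1118, 799 and 666, so that 5 of the 6 lay below every intact library and 1, replicate 4, lay above them all. At 4 months the values were 719, 766, 806, 917, 1307 and 955, again with 5 of 6 below the intact group and 1, replicate 5, above it. The log2 difference at 14 days was -0.28 (SE 0.13), a fold of 0.82, with a limma adjusted *P* of 0.80. At that time *Drd2* ranked within the first 4.47% of all tested genes by *P*. The exact 2-sided permutation test gave *P* = 0.030 over 462 splits and 0.040 over the 200 splits within batches. At 4 months the difference was -0.16 (95% CI -0.42 to 0.11).

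Striatal markers moved with *Drd2* in the POA. The list of 10 striatal genes, all at 2 times the floor or more in every library, had a mean log2 signal of 9.49 to 10.07 in intact libraries and 9.28 to 9.78 at 14 days. With this mean as a covariate beside SV1, an alternative chosen after the data were seen, the log2 difference of *Drd2* at 14 days was -0.12 (limma adjusted *P* = 0.99). The difference was -0.17 without 14dOVX replicate 6, and its unadjusted *P* was then above 0.05, as it was without intact replicate 1 or 2 or without 14dOVX replicate 2 or 5. The part of the striatal markers in this difference was not tested further. With the same covariate *Drd2* in the PH at 14 days had a difference of 0.33 (unadjusted *P* under 0.05, limma adjusted *P* = 1.00). In the PH, *Drd2* had means of 875 ± 160 (n = 4), 894 ± 91.2 (n = 6) and 925 ± 213 (n = 6), against 1018 ± 29.2 (n = 5), 831 ± 155 (n = 6) and 911 ± 213 (n = 6) in the POA.

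*Prlr*, the prolactin receptor, which the choroid plexus expresses strongly beside hypothalamic neurons, did not pass in any comparison. In the PH its intact values were 4133, 1917, 1902 and 2932, its 14dOVX values had a lowest of 2437, a median of 2665 and a highest of 4054, and its 4mOVX values ran from 1858 through 2164 to 4836. In the POA the intact values were 4743, 2208, 3188, 2715 and 2379, with 14dOVX values from 1968 through 2695 to 4170.04 and 4mOVX values from 1943 through 2691 to 3406. Replicate 1 was the highest library in each of the PH groups and in intact and 14dOVX mice of the POA. Means were 2721 ± 1058 (n = 4), 2965 ± 622 (n = 6) and 2610.1 ± 1141 (n = 6) in the PH, and 3046 ± 1019 (n = 5), 2859 ± 769 (n = 6) and 2664 ± 585 (n = 6) in the POA. The log2 differences from intact were 0.13 (95% CI -0.49 to 0.76) and -0.06 (-0.67 to 0.55) for the PH, then -0.13 (-0.56 to 0.31) and -0.22 (-0.66 to 0.21) for the POA. *Prlr* overlaps *Gm21973* on the same strand, so its signal may hold reads of both.

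The response of the 7 genes to OVX was then compared between regions by an interaction term in 1 fit of all 33 libraries. No member passed at 14 days (0 of 7, against 0.00453% of 22091 genes) or at 4 months (0 of 7, against 0.00905%), and none passed at an unadjusted *P* under 0.05 (3.01% and 4.08% of all genes). The smallest *P* at 14 days was that of *Drd2*, whose log2 change was lower by 0.39 in the POA than in the PH, written as -0.39 (SE 0.20, limma adjusted *P* = 1.00). At 4 months *Ddc* came first with -0.26 (SE 0.19, adjusted *P* = 1.00). The other differences ranged from -0.26 to 0.14 at 14 days and from -1.17 (*Slc6a3*) to 0.29 (*Drd1*) at 4 months.

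Across libraries the genes fell into groups that moved together (168 correlations were computed in all, with *P* values adjusted over them). Where 2 permutation *P* values are given, the first is that of r and the second that of rho, and the adjusted *P* is that of r. The 2 transporters were the closest pair, with r = 0.85 in the PH (rho = 0.84, permutation *P* = 3e-05 and 0.00013, adjusted *P* = 0.00072, 16 libraries) and r = 0.90 in the POA (rho = 0.89, each with permutation *P* = 1e-05, adjusted *P* = 0.000336, 17 libraries). A *P* of 1e-05 is the smallest that the permutations can give. Within batches r was 0.77 and 0.83 (PH) or 0.94 and 0.91 (POA), and without the 2 libraries farthest in *Slc6a3* it was 0.81 and 0.91.

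In the PH, *Ddc* passed with *Th* and with both transporters, whereas *Th* passed with neither transporter (r = 0.64 with *Slc6a3* and 0.46 with *Slc18a2*, adjusted permutation *P* = 0.051 and 0.26). *Th* and *Ddc* had r = 0.76 (rho = 0.76, permutation *P* = 0.00075 and 0.00076, adjusted *P* = 0.0126), with 0.88 and 0.71 within batches and 0.84 without the 2 farthest libraries. *Ddc* and *Slc18a2* had r = 0.77 (rho = 0.70, permutation *P* = 0.00051 and 0.0038, adjusted *P* = 0.00952), with 0.78 and 0.76 within batches and 0.62 without the 2 farthest. *Ddc* and *Slc6a3* had r = 0.69 (rho = 0.64, permutation *P* = 0.00263 and 0.0092, adjusted *P* = 0.0294), with 0.36 and 0.90 within batches and 0.58 without the 2 farthest. By rank this pair did not pass (adjusted permutation *P* of rho = 0.0775). *Drd2* and *Prlr* ran in opposite directions there, with r = -0.65 (rho = -0.69, permutation *P* = 0.00582 and 0.0041, adjusted *P* = 0.0466), -0.58 and -0.73 within batches and -0.86 without the 2 farthest. In the POA, r was 0.37 for *Th* with *Ddc*, and no pair other than the transporters passed.

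**Figure D3:**
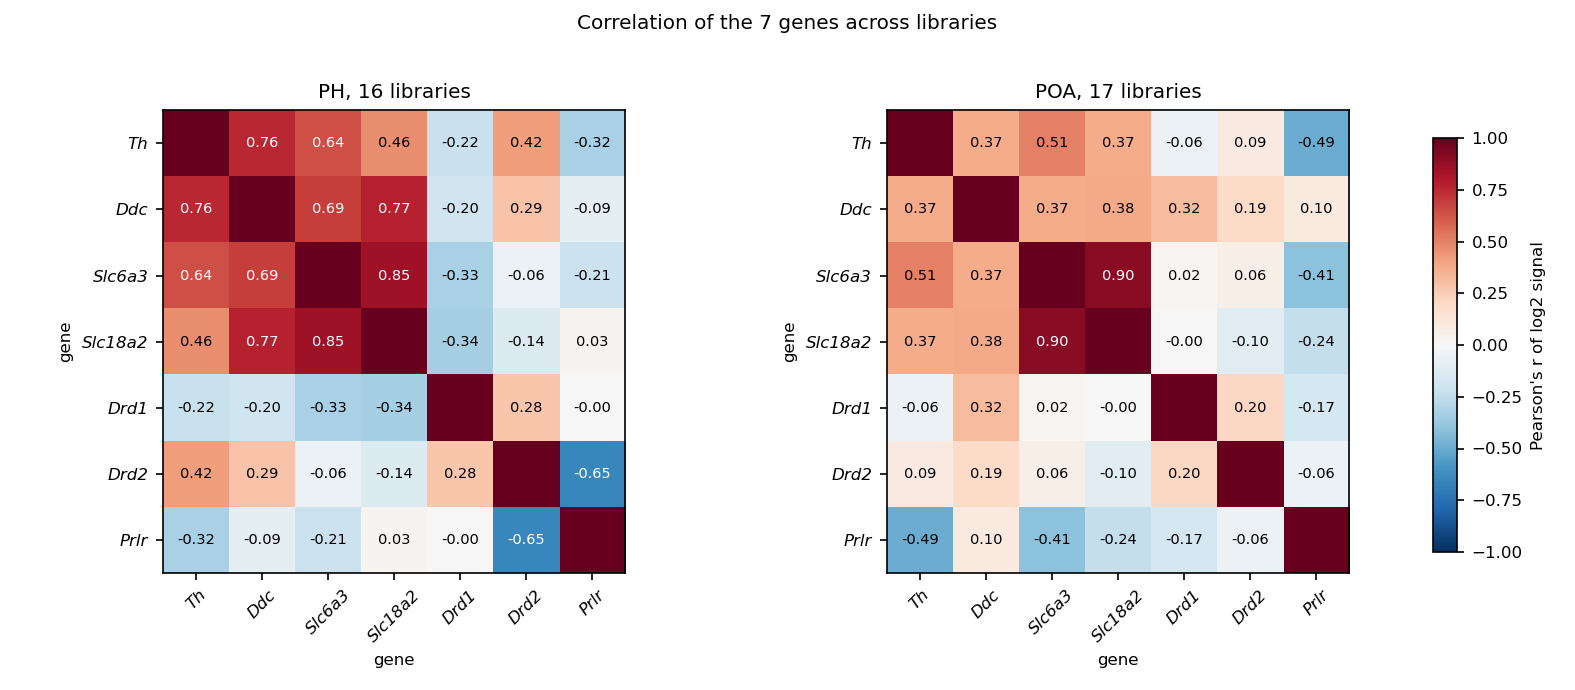
Pearson's r of the log2 signal for each pair of the 7 genes over the 16 PH libraries (left) and the 17 POA libraries (right), on a color scale from -1 to 1. The 4 presynaptic genes form a block of positive values in the PH, with r from 0.46 to 0.85, and the transporters stand out in the POA at 0.90.

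Several marker lists moved with the presynaptic genes. In the PH the histamine neuron list had r = 0.70 with *Slc18a2* (rho = 0.70, permutation *P* = 0.00256 and 0.0038, adjusted *P* = 0.0294), with 0.73 and 0.53 within batches and 0.64 without the 2 farthest libraries. That list holds only 2 genes, *Hdc* and *Maob*, and *Maob* also marks astrocytes. The arcuate nucleus list had r = 0.68 with *Ddc* (rho = 0.49, permutation *P* = 0.00369 and 0.06, adjusted *P* = 0.0326), with 0.55 and 0.76 within batches and 0.75 without the 2 farthest. By rank it did not pass (adjusted permutation *P* of rho = 0.258). Within the 9 PH libraries low in choroid plexus genes, that list had r = 0.86 with *Th* (rho = 0.82, exact permutation *P* = 0.00305 and 0.0108, adjusted *P* = 0.0294), with 0.87 and 0.86 within batches and 0.88 without the 2 farthest. The adjusted permutation *P* of this rho was 0.0861. In the 7 PH libraries high in these genes r with *Th* was 0.36. The sign was opposite in the 10 POA libraries low in these genes (r = -0.78, rho = -0.82, permutation *P* = 0.0088 and 0.0058, adjusted *P* = 0.059). In the 7 high POA libraries r was 0.31.

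Marker genes of midbrain dopamine neurons followed the transporters in both regions. The 10 genes of this list, none of them a member, had 8 at 2 times the floor or more in every PH library and 5 in every POA library, and *Pitx3*, a factor that defines midbrain dopamine neurons, was below that level in most libraries. In the PH, 3 libraries stood apart with a list mean of 7.01 to 7.17, and their *Slc6a3* signal was 95.8 to 232, against 306 to 925 in the other 13 libraries (7.51 to 8.02). Within these 13, r was 0.83 with *Slc6a3* (rho = 0.76, permutation *P* = 0.00117 and 0.0039, adjusted *P* = 0.0179) and 0.87 with *Slc18a2* (rho = 0.83, permutation *P* = 2e-05 and 0.00067, adjusted *P* = 0.00056). Within batches these values were 0.90 and 0.75 for *Slc6a3* and 0.95 and 0.83 for *Slc18a2*, and without the 2 farthest libraries 0.73 and 0.86. Over the 17 POA libraries r was 0.88 with *Slc6a3* (rho = 0.89) and 0.91 with *Slc18a2* (rho = 0.93), each with permutation *P* = 1e-05 and adjusted *P* = 0.000336. Within batches of the POA these values were 0.81 and 0.92 for *Slc6a3* and 0.81 and 0.96 for *Slc18a2*, and 0.85 and 0.87 without the 2 farthest libraries. With the list mean as a covariate beside SV1, an alternative chosen after the data were seen, *Slc6a3* in the PH had log2 differences from intact of -0.49 at 14 days (limma adjusted *P* = 1.00) and -0.34 at 4 months (limma adjusted *P* = 0.74), both with an unadjusted *P* under 0.05.

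A property of the deposited values moved with the same genes. Among the genes at the floor, 108 fell on 1 line across libraries and so carried a single component, which had r = -0.97 with *Slc6a3* and -0.95 with *Slc18a2* in the POA (rho = -0.95 and -0.94, each permutation *P* = 1e-05 and adjusted *P* = 0.000336). In the PH r was -0.67 (rho = -0.78, permutation *P* = 0.00471 and 0.00065, adjusted *P* = 0.0396) and -0.69 (rho = -0.81, permutation *P* = 0.00315 and 0.00026, adjusted *P* = 0.0294). Without the 2 farthest libraries r was -0.95 and -0.93 (POA) or -0.72 and -0.81 (PH), and within batches it ran from -0.94 to -0.97 (POA) or from -0.19 to -0.89 (PH). For the other 5 genes r with the component lay between -0.49 and 0.46. With batch and this component removed, the r of *Slc6a3* with *Slc18a2* was 0.70 for the PH but -0.05 for the POA, and that of *Slc6a3* with the midbrain list was 0.88 and -0.03. *Th* with *Ddc* kept 0.77 and 0.51. The covariation of the transporters in the POA and this component cannot be told apart.

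**Figure D4:**
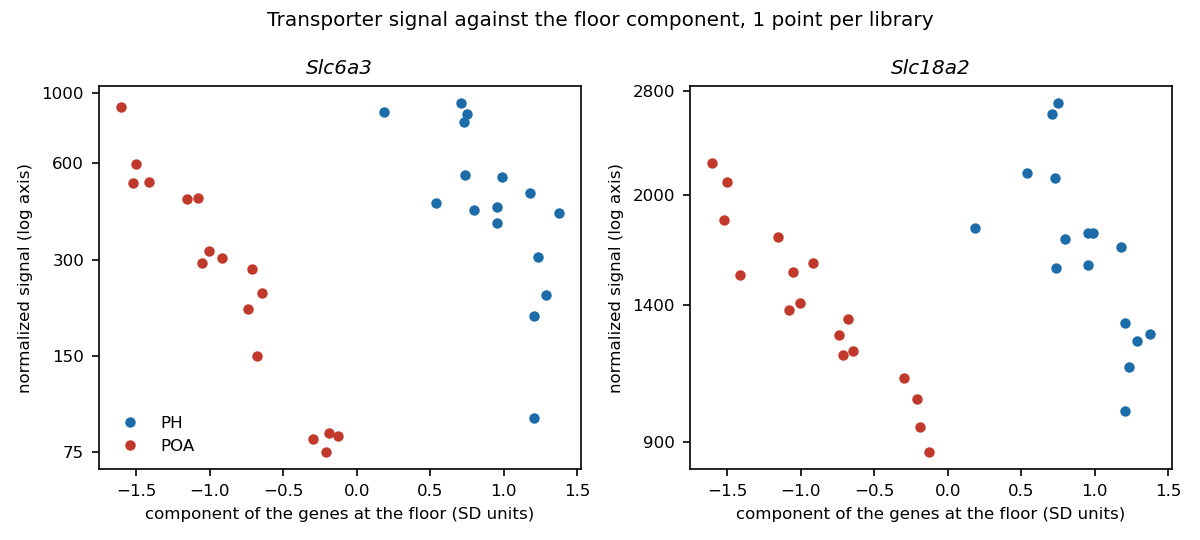
Signal of *Slc6a3* and *Slc18a2* (log axes) against the component carried by genes at the floor (in SD units over all 33 libraries), 1 point per library, PH in blue and POA in red. Within the POA both transporters run down along the component with r of -0.97 and -0.95.

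The receptors followed other markers. *Drd2* rose and fell with the striatal list over the POA libraries, r = 0.75 (rho = 0.68, permutation *P* = 0.00039 and 0.0038, adjusted *P* = 0.00819), with 0.81 and 0.70 within batches and 0.62 without the 2 farthest libraries. *Drd1* did so with r = 0.70 (rho = 0.61, permutation *P* = 0.00188 and 0.0118, adjusted *P* = 0.0243), with 0.70 and 0.85 within batches and 0.59 without the 2 farthest. Its rho did not pass (adjusted permutation *P* = 0.0861). In the PH r was 0.63 for *Drd1* (adjusted permutation *P* = 0.0609), with 0.87 and -0.42 within batches, so it did not hold in batch 2, and 0.51 for *Drd2* (adjusted permutation *P* = 0.182). *Drd2* in the POA also had r = 0.65 with the list of 6 general neuron genes (rho = 0.625, permutation *P* = 0.00309 and 0.009, adjusted *P* = 0.0294), with 0.46 and 0.74 within batches and 0.53 without the 2 farthest libraries. The rho of this pair did not pass (adjusted permutation *P* = 0.0775).

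In the PH, *Prlr* was mostly higher in the libraries high in choroid plexus genes than in the rest. The mean of the 12 choroid plexus genes, 10 of which in the PH, and 11 in POA tissue, were at 2 times the floor or more in every library, fell into 2 clusters. In the PH, 9 libraries had a mean log2 signal of 7.15 to 7.61 with *Prlr* at 1858 to 2714, and 7 had 9.28 to 10.53 with *Prlr* at 2616 to 4836. Within the 7 high libraries r was 0.96 (rho = 0.89, exact permutation *P* = 0.00139 and 0.0123, adjusted *P* = 0.0195, 0.91 without the 2 farthest, 0.64 over the 4 of batch 2, with 3 too few in batch 1; adjusted *P* = 0.0861 for rho), and within the other 9 it was -0.51 (exact permutation *P* = 0.163). In the POA the 10 low libraries had *Prlr* at 1943 to 3251 and the 7 high ones at 1968 to 4743, with r of 0.03 and 0.48 within them (adjusted permutation *P* = 0.96 and 0.56). One POA library, 14dOVX replicate 6, paired a high choroid plexus mean with one of the lowest *Prlr* values, 1968. With the choroid plexus mean as a covariate beside SV1, chosen after the data were seen, the log2 difference of *Prlr* at 14 days in the PH was 0.26 (SE 0.13, limma adjusted *P* = 1.00), against 0.13 with an SE of 0.29 without it. The clusters crossed all 3 groups.

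**Figure D5:**
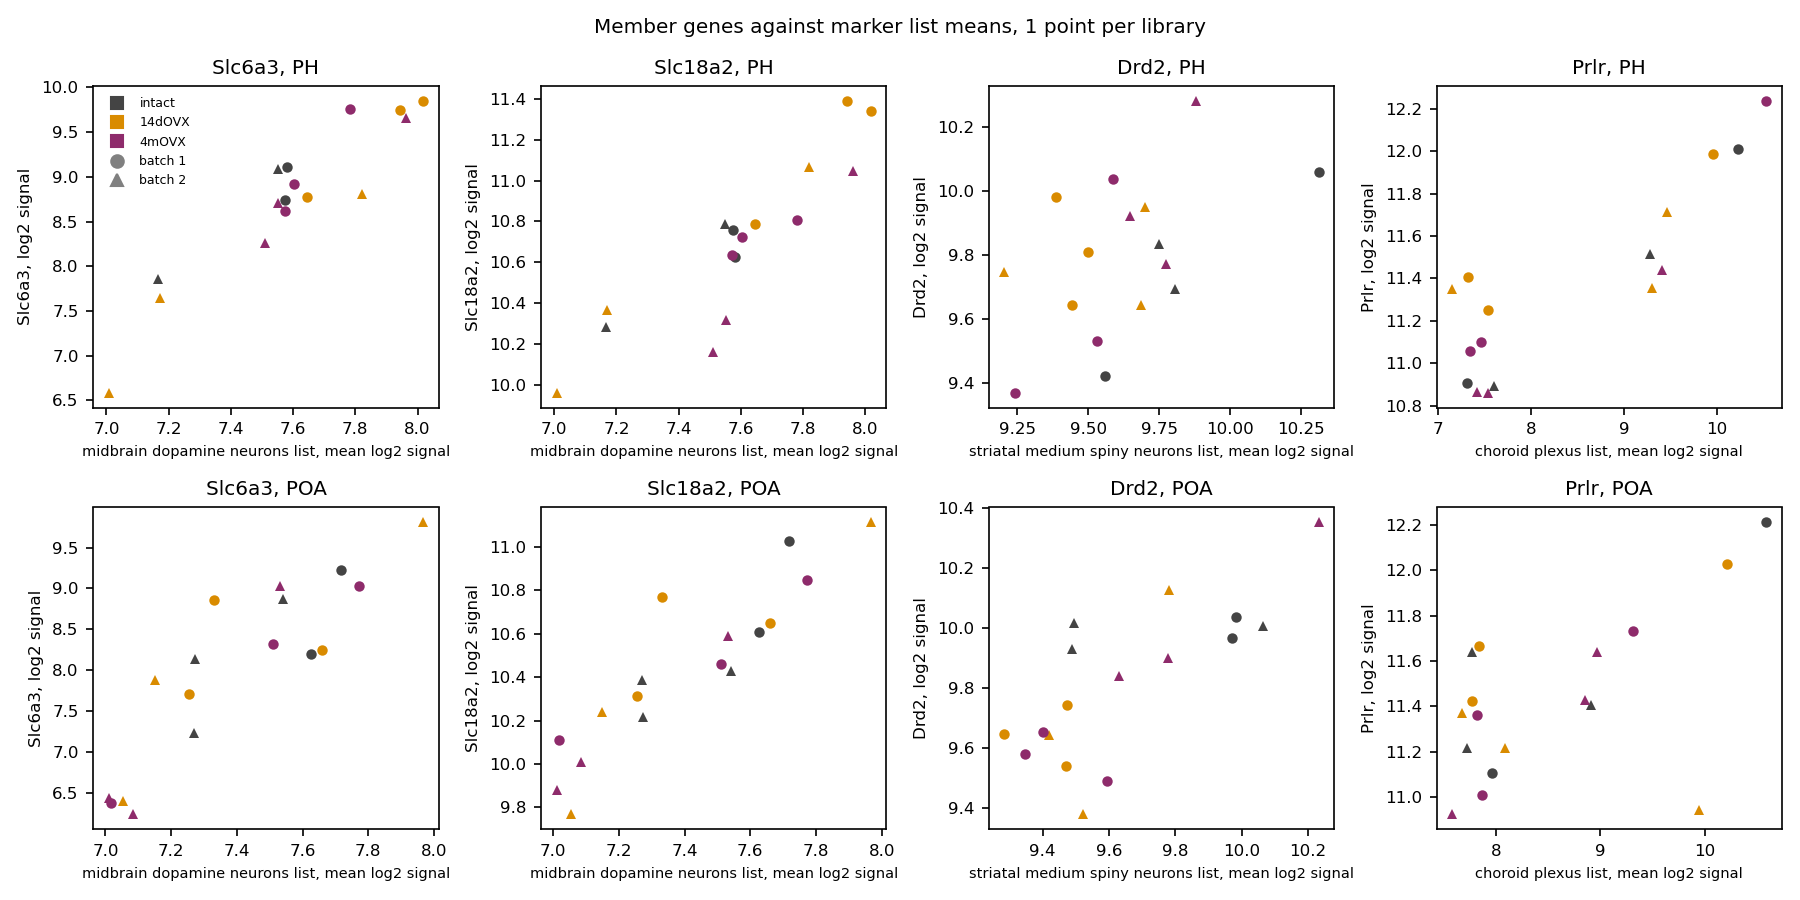
Log2 signal of *Slc6a3*, *Slc18a2*, *Drd2* and *Prlr* against the mean log2 signal of a marker list (midbrain dopamine neurons, striatal medium spiny neurons or choroid plexus), 1 point per library, PH above and POA below, groups by color and batches by symbol. The transporters rise with the midbrain list in both regions, and the choroid plexus lists fall into 2 clusters in which *Prlr* of the PH reaches 2714 and 4836.

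The genes most like each member across the libraries of a region were named by Pearson's r on log2 values minus the batch mean, over 16098 other protein-coding genes (PH) or 15917 (POA). These are descriptions, because the genes share libraries and the floor component. *Slc6a3* was most like *En1*, *Chrna6*, *Gucy2c*, *Slc18a2* and *Mroh8* in the PH (r from 0.93 to 0.76) and *Chrnb3*, *Foxa2*, *Hcrt* and *Nr5a1* in the POA (0.98 to 0.93). *En1* is a homeobox factor of midbrain dopamine neurons, *Chrna6* and *Chrnb3* encode nicotinic receptor subunits abundant in these cells, and *Hcrt* encodes orexin of the lateral hypothalamus. *Slc18a2* was most like *Chrna6*, *Chrnb3*, *Foxa1*, *Klhl1* and *Cdh10* in the PH (0.88 to 0.80) and *Foxa2*, *Pou4f1*, *Chrnb3*, *Tnc* and *Chrna3* in the POA (0.95 to 0.92). With the component also removed, none of the POA genes named here stayed among the 5 most like either transporter.

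For the enzymes, the genes most like *Th* were *Zbtb12*, *Susd2*, *Ret*, *Tbx3* and *Lgi2* in the PH (0.86 to 0.79) and *Kmt5c*, *Ctsf*, *Slc25a42*, *Flii* and *Acin1* in the POA (0.90 to 0.89). *Ddc* was most like *Lhx1*, *Tbx3*, *Ankrd34b*, *Eif2b3* and *Nmur2* in the PH (0.84 to 0.77) and *Or2a12*, *Trappc11*, *Zfp961*, *Eral1* and *Uba1* in the POA (0.88 to 0.83). *Ret* encodes the receptor subunit for GDNF, a growth factor of dopamine neurons, and *Tbx3* is a transcription factor of the arcuate nucleus. Both enzymes had *Tbx3* among these genes in the PH, at r of 0.80 and 0.78, but with the group means also removed r was 0.54 and 0.53 and none of the 5 genes of either enzyme remained among its first 5.

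*Drd1* was most like *Gng7*, *Ppp1r1b*, *Gm19410*, *D2hgdh* and *Rasgef1a* in the PH (0.84 to 0.77) and *2310057M21Rik*, *Rarb*, *Adora2a*, *Mettl15* and *Filip1* in the POA (0.89 to 0.81). *Gng7* and *Ppp1r1b* (DARPP-32) act below dopamine receptors in striatal neurons, and *Adora2a* and *Rarb* are striatal markers of the fixed list. *Drd2* was most like *Kat7*, *Rpp14*, *Gls2*, *Slc35d2* and *Exosc7* in the PH (0.82 to 0.79) and *Thy1*, *Etv5*, *Kcnab1*, *Mchr1* and *Wars1* in the POA (0.87 to 0.83). *Prlr* was most like *Ecrg4*, *Slc31a1*, *Fap*, *Sostdc1* and *Kl* in the PH (0.94 to 0.92), of which *Sostdc1* and *Kl* stand in the choroid plexus list, and *Tbc1d9*, *Apoo*, *Cnpy2*, *Echs1* and *Ppib* in the POA (0.93 to 0.88).

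The other genes of the dopamine and prolactin pathways were taken from 9 lists with 58 genes, of which 54 were tested. *Dbh*, *Slc6a2*, *Pnmt* and *Drd4* did not pass the filter on low values, so that the enzymes and the transporter of noradrenaline and adrenaline neurons were at or near the floor. None of the 54 was called in any of the 8 comparisons. At an unadjusted *P* under 0.05, the counts in the PH were 1 higher at 14 days, 2 lower at 4 months, and 1 higher and 2 lower between the 2 times. In the POA they were 2 higher and 2 lower at 14 days, 2 higher and 3 lower at 4 months and 1 of each between the 2 times. Against the shares of all genes given for the same 6 comparisons, these counts do not set the lists apart. The median log2 difference of the 54 genes ranged from -0.06 to 0.03 over these 6 comparisons.

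Steroid receptors were among those with the smallest *P*. *Pgr*, the progesterone receptor, a gene known to be induced by estrogen, had means of 1945 ± 172 in the intact POA (n = 5), 1842 ± 349 at 14 days (n = 6) and 1728 ± 212 at 4 months (n = 6). Its log2 difference in the POA was -0.16 at 14 days (SE 0.06, limma adjusted *P* = 0.80) and -0.24 at 4 months (SE 0.06, limma adjusted *P* = 0.20). Without POA 14dOVX replicate 6, which shares the estimate of the spread, *Pgr* was called at 4 months with -0.23 (limma adjusted *P* = 0.036). In the PH at 4 months it was -0.22 (SE 0.09, limma adjusted *P* = 0.71). *Esr1*, estrogen receptor α, had a difference of 0.39 in the PH at 14 days (SE 0.12, limma adjusted *P* = 1.00), with a mean of 729 ± 54.2 in intact mice (n = 4) and 880 ± 176 at 14 days (n = 6).

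Genes of dopamine breakdown and of the prolactin signal gave the others. *Maob*, which oxidizes dopamine and marks histamine neurons and astrocytes, had POA means of 2358 ± 430 (n = 5), 2832 ± 286 (n = 6) and 2961 ± 383 (n = 6), with log2 differences of 0.25 and 0.31 (limma adjusted *P* = 0.80 and 0.36), and its change at 4 months was larger in the POA than in the PH by 0.35 (SE 0.16, adjusted *P* = 1.00). *Socs2*, a target of STAT5 signaling, had a difference of -0.30 in the PH at 4 months (SE 0.12, limma adjusted *P* = 0.73). *Pts* (0.14) and *Adcy5* (-0.15) followed in the POA at 14 days, and *Ghrh* (-0.39) and *En2* (0.27) in the POA at 4 months. The fifth gene there, *Jak2* (-0.12), lies outside the rule for named genes and was chosen after its value was seen. Between 14 days and 4 months in the PH these were *En2* (0.52), *Isl1* (-0.34) and *Prl* (-2.83), and in the POA *Prl* (-4.02) and *En2* (0.29).

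*Prl*, the pituitary hormone that *Prlr* binds, varied widely between the libraries of some groups. Its signal ran from 20.9 to 2919 in the 4 intact PH libraries and from 30.3 to 2920 in the 6 POA libraries at 14 days, whereas no library at 4 months reached 2 times the floor in either region (20.6 to 39.6 for the PH, 22.3 to 36.5 for the POA). Of the 7 anterior pituitary markers, 4 were tested, *Prl* among them, and 1 was at 2 times the floor or more in every library, whereas *Lhb*, *Fshb* and *Pou1f1* reached that level in no PH library. The mean log2 signal of the list, which contains *Prl* itself, reached 8.71 in the intact PH and 9.78 in the 14dOVX POA but at most 5.78 and 5.64 at 4 months. In the PH this mean was 5.89 to 7.68 at 14 days, so every 14dOVX library lay above every 4mOVX library. In the POA its median at 14 days was 8.04 and its lowest value 5.40. The part of pituitary RNA in the *Prl* values was not tested.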

How the data were processed

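Posterior hypothalamus and preoptic area were profiled by stranded bulk mRNA sequencing in 33 libraries. Per the methods and the labels, the authors pseudoaligned reads with kallisto (mm39) and imported them into DESeq2. The deposited table holds a normalized signal on a linear scale with a floor near 22.16 in place of 0, and the step that made these values is not given in the sources used here. The table holds no counts, so depth is unknown, and library sums are not depth. All columns matched a library by name (0 did not). The 1259 unnamed entries among 42824 were not used.

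Signals were analyzed as log2 values with a pseudocount of 0 in R 4.3.3 with limma 3.58.1 (trend and robust estimates). Genes at 2 times the floor or more in at least 4 PH or 5 POA libraries were tested. All 3 groups of a region entered 1 fit with its first surrogate variable (SV1, written in base R, 5 rounds) as covariate, and 1 fit of both regions gave the interaction. In the PH, SV1 was 0.79 in 14dOVX replicate 5 and -0.31 to 0.19 in the other libraries, so it mainly set that library apart. In the POA it separated the batches, with 0.19 to 0.35 in batch 1 and -0.32 to -0.13 in batch 2. *P* values were adjusted by Benjamini-Hochberg over all tested genes, and called means an adjusted *P* under 0.05. Exact 2-sided permutation tests covered every division of a pair of groups. Correlations had 100000 permutations, or all orders for fewer than 10 libraries, and were computed within clusters where libraries fell apart. Libraries were permuted across groups and batches, so these *P* values also count covariation that comes from either. The fits were tested on simulated data.

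Every member is named, with a log2 difference for each at an unadjusted *P* under 0.05 or else for the one with the smallest *P*. The 5 genes most like each member are named, except 1 that is not reported here, and at most 4 pathway genes per comparison, in order of *P*. The members and lists were chosen with earlier results of these data known. Alternatives were other covariates, a pseudocount of 100, no filter, pairs of groups alone, a replicate block, single batches and leaving out each library.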

Additional observations from a re-analysis of the deposited data

Results flagged for a closer look

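Within the groups of 4 to 6 libraries, 3 of 42 pairs of gene and group held a library far from the rest, where chance gives about 1 in 20, or 2.1. *Th* was 1353 in POA 4mOVX replicate 5, against 813 in the next library. *Drd1* was 723 in POA 14dOVX replicate 2, against 458 in the next. *Prlr* was 4836 in PH 4mOVX replicate 1, against 2775 in the next, and this library also had the highest choroid plexus mean of the PH (10.53 on the log2 scale).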

How the results depend on the processing

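No member was called in any of 1771 fits over the alternatives (lowest limma adjusted *P* = 0.26). Over these fits the sign of a member's difference was opposite in 146, among them 17 of 29 for *Th* in the PH at 14 days. That difference was 0.00 in the main fit and ran from -0.64 (batch 2 only) to 0.47 (batch 1 only). For *Slc6a3* in the PH at 4 months the sign was opposite in 1 (-0.34 with the midbrain list as a covariate). Among the 265 alternative values of the members named by *P*, directions turned in 6: *Ddc* in the PH at 14 days was -0.14 in batch 2 only, *Slc6a3* between the 2 times in the PH was -0.36 in batch 1 only, and *Drd1* in the PH at 4 months was 0.18 in batch 2 only, 0.054 without PH intact replicate 2, 0.013 without PH 4mOVX replicate 3, and 0.36 with the striatal list as a covariate, which was chosen after seeing the data. The cause was not tested. Leaving out each library gave -0.37 to -0.17 for *Drd2* in the POA at 14 days.

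Pathway genes called in the POA at 4 months numbered 0 with all libraries and 0 to 1 when each was left out (*Pgr*, without 14dOVX replicate 6). They numbered 2 with the midbrain list as a covariate, also chosen after seeing the data (*Maob* 0.39 and *Pgr* -0.28), where calls over all genes rose from 20 to 145. Over the alternatives these calls ran from 0 to 14 in the PH and from 0 to 145 in the POA at 4 months, and from 0 to 2 and 0 to 4 at 14 days.

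With the replicate number as a block, 0 members were called, and *Drd2* in the POA at 14 days was -0.27 (unadjusted *P* above 0.05). *Ddc* was 0.28 in the PH at 14 days, and calls over all genes in the POA at 4 months were 1. Between regions, 14 of 16 pairs of one group and number deviated together from their group means (r over 0.1, lowest -0.34). So did 23 of 30 pairs of one number within a region (median r 0.23), and 10 of 16 PH libraries were most like the POA library of their own group and number. Batch was left in these deviations, and all 16 pairs between regions shared a batch. The 4 of the 30 pairs in different batches had r of -0.05, -0.12, -0.27 and -0.31. These r values therefore do not separate a shared number from a shared batch. Not every pair passed 0.1, and nothing states that a number marks a shared mouse, batch or day, so the numbers were not taken as pairs.

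Of the 5 genes most like each member, a median of 2 (0 to 4) were shared with ranks, 2 (0 to 3) with group means removed, and 1.5 (0 to 4) with the floor component removed. Depth is unknown, and 4 to 6 libraries per group left intervals of up to 1.53 on either side within a region and 1.91 for the difference between regions (both *Slc6a3*).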
